A study of Rattus norvegicus with 12 samples.

Results

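The rat genes RT1-Ba, RT1-Bb, RT1-Da and RT1-Db1, which encode the classical MHC class II chains, and Cd74, which encodes the invariant chain, were measured by 16 probe sets on lung arrays. The members were all probe sets whose platform gene symbol is one of these 5 genes: 3 for RT1-Ba, 5 for RT1-Bb, 2 for RT1-Da, 2 for RT1-Db1 and 4 for Cd74. They are 16 of the 8740 probe sets tested, out of 8799 in the table with 59 array controls, and 5 of the 4736 genes named by a single symbol.

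The study asked how lung gene expression differs after trauma with hemorrhagic shock, and whether the difference depends on mesenteric lymph reaching the circulation. Whole lungs of male Sprague-Dawley rats, an outbred stock, were hybridised to Affymetrix RG-U34A arrays, with 3 arrays labelled as biological replicates in each of 4 groups. Rats of all 4 groups were anesthetized, had the femoral artery and jugular vein cannulated and underwent a laparotomy, so the controls carried the surgical trauma too. Lungs were taken 3 h after 90 min of shock or sham treatment had ended, or 4.5 h after it began. In the T/HS group, blood was drawn into heparin to hold arterial pressure at 30 mmHg for 90 min and was then returned. In the T/HS-LDL group, the efferent mesenteric lymph vessels were tied off and cut before the same shock. In the T/SS-LDL group, these vessels were tied off and cut and no blood was withdrawn. The T/SS group had the cannulation and laparotomy alone. By the study's design text, only the T/HS rats had measurable lung injury.

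Each group held 2 arrays that nearly coincided, with a robust SD of log2 differences between 0.00993 and 0.0548, against 0.164 to 0.232 for the 8 other pairs within groups. Such arrays were averaged and counted as 1 sample, called the averaged sample of its group, so that 8 samples remained, 2 in each group. Where a group has a pair of values, the averaged sample's comes first and the single array's follows. The deposited values are linear RMA intensities, whose array medians ran from 647 to 677. The markers of alveolar type II cells, such as the surfactant protein genes, summed to between 115782 and 128725 in the 8 samples, so the labelled tissue's own markers were present throughout. T/HS replicate 2 stood apart in interferon-induced genes, and the other T/HS sample in a few lymphocyte genes. Their values stand beside the class II results, and every sample is shown for each member.

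An MHC class II molecule is a pair of an alpha and a beta chain that shows peptides from taken-up protein to CD4 T cells. RT1-Ba and RT1-Bb encode the alpha and beta chains of the RT1-B molecule, the rat counterpart of mouse I-A and human HLA-DQ, while RT1-Da and RT1-Db1 encode those of RT1-D, the counterpart of mouse I-E and human HLA-DR. The invariant chain Cd74 holds the new pair in the endoplasmic reticulum, blocks its peptide groove and guides it to endosomes, where cathepsins degrade the invariant chain and DM molecules exchange its last fragment for peptide. In lung, class II molecules are carried by dendritic cells, macrophages, B cells and alveolar type II epithelial cells.

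The 4 class II chain genes lie together in the MHC on chromosome 20 and Cd74 lies on chromosome 18 of the RefSeq assembly GRCr8. RT1-Da spans 4515393 to 4520387, RT1-Db1 4550594 to 4560182, RT1-Ba 4577057 to 4581650 and RT1-Bb 4598475 to 4604118 on chromosome 20, and Cd74 spans 56527071 to 56536406 on chromosome 18. Their promoters are shown because these 5 genes are known for a shared promoter module, in which an X box, bound by the RFX complex and, in its X2 part, by CREB, stands next to a Y box, bound by NF-Y, and the co-activator CIITA docks on both. Each sequence is a 65 base stretch from RefSeq's GRCr8, 5′ to 3′ on the gene's own strand. The first run of capitals marks an X box pattern of 13 letters (C, any letter, AG, any 2, AC, any 3, TG), or in RT1-Ba the X2 box letters TGACGTCA, and the second marks the Y box letters CTGATTGG, or in Cd74 the CCAAT core alone. The marked core reads CCAAT in Cd74 and, in the opposite orientation, ATTGG in the 4 chain genes. The stretches are chr20:4576964-4577028 (plus strand) for RT1-Ba, chr20:4604165-4604229 (minus strand) for RT1-Bb, chr20:4515316-4515380 (plus strand) for RT1-Da, chr20:4560228-4560292 (minus strand) for RT1-Db1 and chr18:56526967-56527031 (plus strand) for Cd74.
RT1-Ba: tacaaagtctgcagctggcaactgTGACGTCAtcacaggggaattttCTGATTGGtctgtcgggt
RT1-Bb: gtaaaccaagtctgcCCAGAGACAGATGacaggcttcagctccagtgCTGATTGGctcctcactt
RT1-Da: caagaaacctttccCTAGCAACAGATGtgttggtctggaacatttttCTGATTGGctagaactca
RT1-Db1: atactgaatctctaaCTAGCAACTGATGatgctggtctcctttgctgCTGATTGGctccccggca
Cd74: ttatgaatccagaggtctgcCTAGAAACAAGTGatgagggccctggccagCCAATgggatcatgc

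The 4 chain genes carry the same Y box letters, and the X box of RT1-Da and that of RT1-Db1 differ in few letters. Between the first marked box and the CCAAT core stood 18 bases in RT1-Ba, 22 in RT1-Bb, 23 in RT1-Da, 22 in RT1-Db1 and 17 in Cd74. The letters were chosen after these promoters were read, and both strands were searched, so the matches are a description. The search covered 300 bases of each promoter, 250 before to 50 after the gene's start, and not only the 65 base stretches shown. Over 33469 RefSeq promoters of that length, 3.50% held the Y box letters, 3.43% the X box letters, 1.83% the X2 box letters, and 37.5% the CCAAT core, which lies within the Y box letters. An X box with a CCAAT core at most 40 bases away was found in 150 promoters, or 0.448%, among them those of RT1-Bb, RT1-Da, RT1-Db1 and Cd74.

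No member passed the threshold in any of the 6 comparisons made, an adjusted p of 0.05 from limma with Benjamini-Hochberg adjustment over 8740 probe sets. Nor did any other probe set, so the background share of calls was 0% in each. At an unadjusted p under 0.05, 0 of the 16 members passed in T/HS against T/SS, where 8.8% of all probe sets did. Cd74 and RT1-Da had strong and even signals in all 4 groups, whereas RT1-Bb differed up to 25.2-fold between single samples. The differences below are log2 differences of group means, each with its standard error from limma and 2 samples per group.

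**Figure D1:**
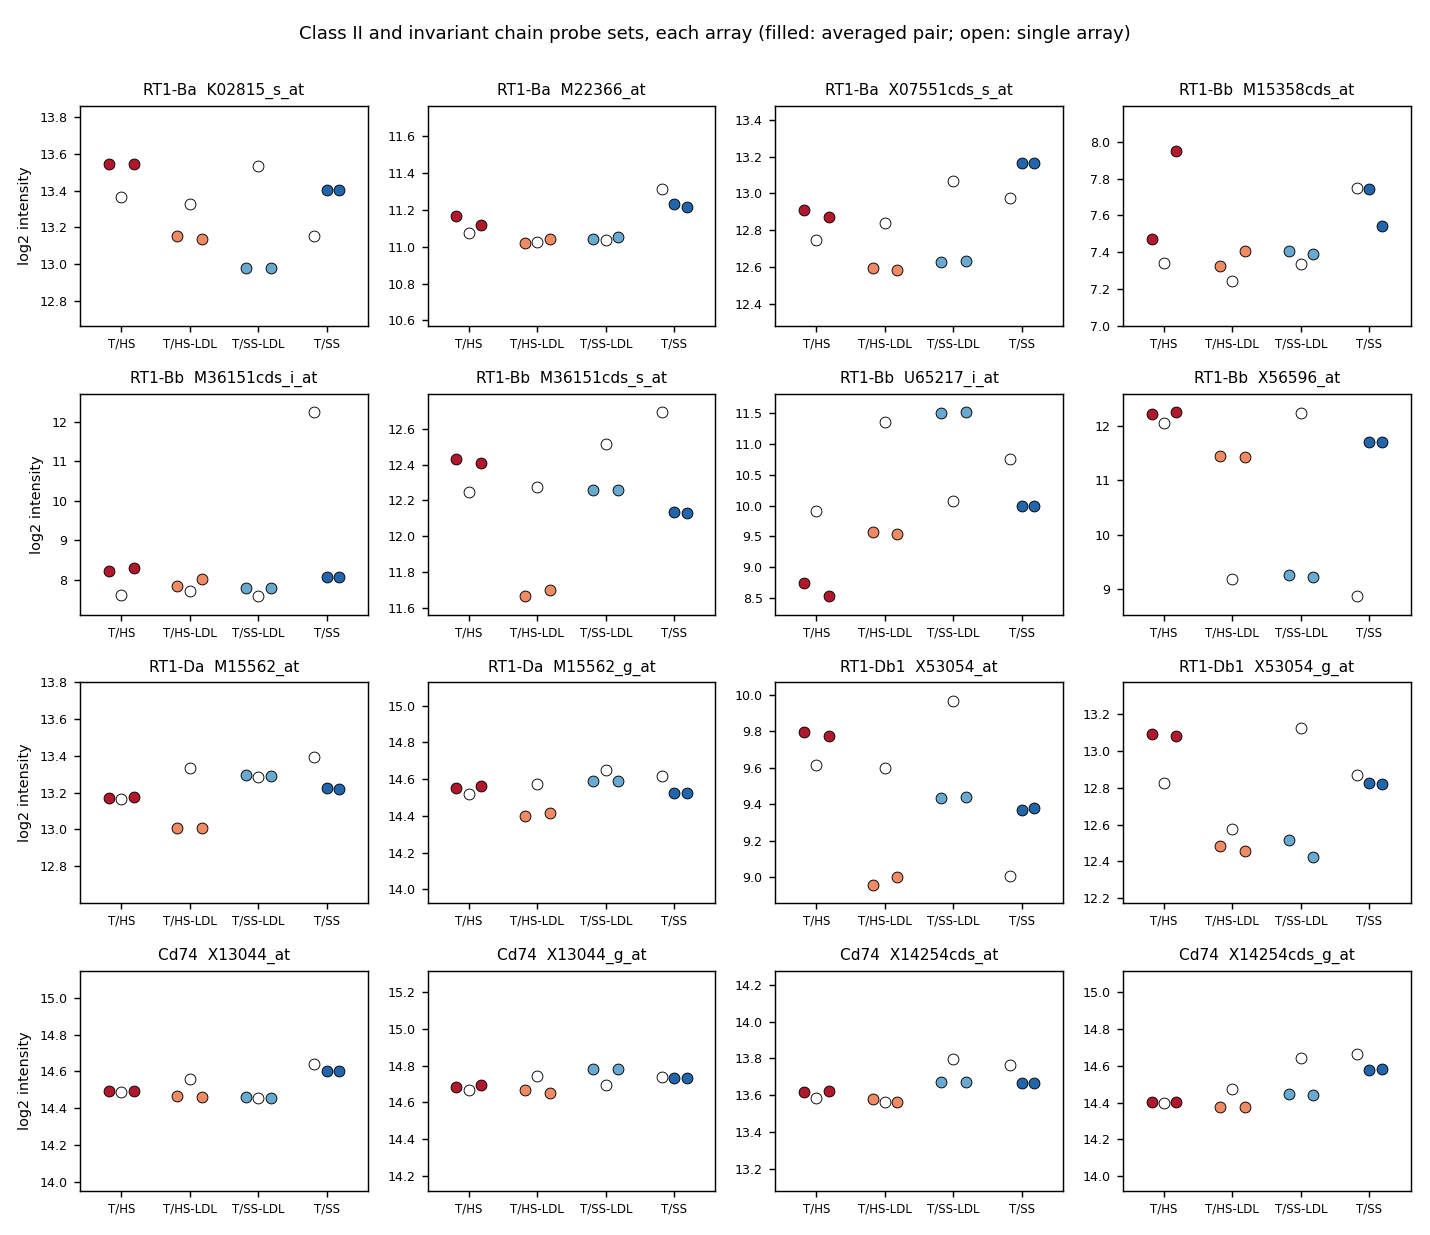
Log2 intensity (vertical axis, own scale in each panel) of the 16 probe sets in T/HS, T/HS-LDL, T/SS-LDL and T/SS lungs. Each point is 1 array: filled points are the 2 near-identical arrays of a group that were averaged, and open points the remaining array. The Cd74 panels span at most 1.22-fold, while RT1-Bb M36151cds_i_at spans 25.2-fold and X56596_at 10.3-fold.

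The invariant chain Cd74 was the steadiest gene of the group. Its probe set X13044_at had intensities of 23056 and 22948 in T/HS lungs, 22616 and 24134 in T/HS-LDL lungs, 22537 and 22461 in T/SS-LDL lungs, and 24891 and 25562 in T/SS lungs. Both T/SS samples lay above the 6 other samples. The difference of T/HS from T/SS was -0.13 ± 0.09, with a limma adjusted p of 0.709 and a 95% interval from -0.34 to 0.08. The probe set X13044_g_at, drawn from the same source sequence, had 26443 and 26063 in T/HS lungs, 25872 and 27435 in T/HS-LDL lungs, 28153 and 26526 in T/SS-LDL lungs, and 27208 and 27332 in T/SS lungs. It spanned only 1.09-fold over the 8 samples, with an SD of 0.042 on the log2 scale against a median of 0.144 over all probe sets. Its T/HS samples were below its T/SS samples by little, with a difference of -0.05 ± 0.09 (limma adjusted p = 0.905).

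A separate Cd74 source sequence gave a like picture. X14254cds_at had 12606 and 12289 in T/HS lungs, 12172 and 12082 in T/HS-LDL lungs, 13055 and 14219.6 in T/SS-LDL lungs, and 13012 and 13922 in T/SS lungs. All 4 shocked samples lay below all 4 sham-shocked samples, whether the lymph duct was open or ligated. Averaged over both duct states, the shocked lungs differed from the sham-shocked lungs by -0.14 ± 0.07, which did not pass (limma adjusted p = 0.619). X14254cds_at was the only one of the 16 members whose shocked and sham-shocked samples did not overlap, in a comparison where 2.15% of all probe sets had every shocked sample lower and 2.49% every shocked sample higher. X14254cds_g_at had 21672 and 21604 in T/HS lungs, 21247 and 22749.6 in T/HS-LDL lungs, 22293 and 25566 in T/SS-LDL lungs, and 24482 and 25936 in T/SS lungs. Its shocked and sham-shocked samples overlapped, and its difference over both duct states was -0.17 ± 0.07 (limma adjusted p = 0.581). Between T/HS and T/SS it was -0.22 ± 0.11, the smallest p of the 16 members in that comparison, with a limma adjusted p of 0.600.

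The brightest members were near the top of the scale: X13044_g_at of Cd74 reached 91.9% of an array's highest intensity, M15562_g_at of RT1-Da 86.0%, X14254cds_g_at of Cd74 85.4% and X13044_at of Cd74 80.5%. X13044_at stood at the same 73.086% of the array's highest intensity on all 3 T/HS arrays and on T/HS-LDL replicate 3. X14254cds_g_at stood at 68.7236% on T/HS replicate 1 and T/HS-LDL replicates 1 and 3. Why these shares were equal was not tested. Whether differences are compressed at these intensities, and so the part of signal height in the evenness of Cd74 and RT1-Da, was not tested. No member lay within 2% of an array's highest value, where 22 to 51 probe sets per array did. In bulk lung, fewer cells of a type and less RNA per cell cannot be told apart in any of these values.

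RT1-Da, the alpha chain of RT1-D, was also even across the samples. M15562_g_at had 24127 and 23486 in T/HS lungs, 21742 and 24339.6 in T/HS-LDL lungs, 24656 and 25741 in T/SS-LDL lungs, and 23594 and 25082 in T/SS lungs. The groups overlapped between T/HS and T/SS, and both T/HS-LDL samples were below both T/SS-LDL samples by -0.13 ± 0.10 on the log2 scale (limma adjusted p = 0.998). M15562_at had 9239 and 9199 in T/HS lungs, 8240.3 and 10342 in T/HS-LDL lungs, 10028 and 10001 in T/SS-LDL lungs, and 9560.1 and 10762 in T/SS lungs. Its T/HS samples were below its T/SS samples, with a difference of -0.14 ± 0.13 (limma adjusted p = 0.802). The averaged T/HS-LDL sample was the lowest of the 8 for both RT1-Da probe sets.

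RT1-Db1, the beta chain of RT1-D, varied more. X53054_at had 881 and 784 in T/HS lungs, 504 and 774 in T/HS-LDL lungs, 692 and 1001 in T/SS-LDL lungs, and 664 and 514 in T/SS lungs. The T/HS pair exceeded the T/SS pair and the T/HS-LDL pair without overlap, while the highest single value was in T/SS-LDL. The difference of T/HS from T/SS was 0.51 ± 0.26 (limma adjusted p = 0.613) and that of T/HS from T/HS-LDL 0.41 ± 0.26 (limma adjusted p = 0.788), and the second was 0.10 without the averaged T/HS-LDL sample. The shock difference with the duct open exceeded that with the duct ligated by 0.92 ± 0.37, the only one of the 16 members with an unadjusted p under 0.05 for this interaction, against 2.99% of all probe sets, and with a limma adjusted p of 1.00. The brighter X53054_g_at, from the same source sequence, had 8699.7 and 7262 in T/HS lungs, 5676 and 6099 in T/HS-LDL lungs, 5678 and 8933 in T/SS-LDL lungs, and 7251 and 7487 in T/SS lungs. It too was higher in both T/HS samples than in both T/HS-LDL samples, by 0.43 ± 0.21 (limma adjusted p = 0.775), but its T/HS and T/SS samples overlapped, with a difference of 0.11 ± 0.21 (limma adjusted p = 0.916). Without the averaged T/HS sample that last difference was -0.02, so its sign rests on 1 sample.

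For RT1-Ba, the alpha chain of RT1-B, the 3 probe sets did not run alike. K02815_s_at had 11957 and 10559 in T/HS lungs, 9059 and 10271 in T/HS-LDL lungs, 8068 and 11883 in T/SS-LDL lungs, and 10847 and 9115 in T/SS lungs. The T/SS-LDL samples held both the lowest value and one of the highest, and T/HS overlapped T/SS, with a difference of 0.18 ± 0.20 (limma adjusted p = 0.836). X07551cds_s_at had 7589.5 and 6870.1 in T/HS lungs, 6164 and 7333 in T/HS-LDL lungs, 6344 and 8577 in T/SS-LDL lungs, and 9202 and 8063 in T/SS lungs. Here both T/HS samples were below both T/SS samples, by -0.25 ± 0.17 on the log2 scale (limma adjusted p = 0.713), opposite in sign to K02815_s_at. M22366_at had 2261 and 2155 in T/HS lungs, 2090.0 and 2088 in T/HS-LDL lungs, 2118 and 2098 in T/SS-LDL lungs, and 2389 and 2550.3 in T/SS lungs. As for Cd74 X13044_at, the T/SS samples were the highest, and the other 6 samples spanned a narrow range. The difference of T/SS-LDL from T/SS for M22366_at was -0.23 ± 0.09, the only one of the 16 members with an unadjusted p under 0.05 in that comparison, against 4.23% of all probe sets, and its limma adjusted p was 0.896.

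RT1-Bb, the beta chain of RT1-B, was where single lungs differed most. X56596_at had 4807 and 4222 in T/HS lungs, 2775 and 585 in T/HS-LDL lungs, 604 and 4834 in T/SS-LDL lungs, and 468 in T/SS replicate 1 against 3317 in the averaged T/SS sample. In each group but T/HS, 1 sample was low and the other high. The 10.3-fold span ranked it 8th of 8740 probe sets by SD over the 8 samples, and 5th by SD within groups. The T/HS samples were both above the T/SS samples, with a difference of 1.85 ± 1.27 and a limma adjusted p of 0.715. That value was 0.44 without T/SS replicate 1 and 3.27 without the averaged T/SS sample, so its size depends on which T/SS sample is kept.

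The probe set U65217_i_at of RT1-Bb ran the other way in the same lungs. It had 399.6 and 969 in T/HS lungs, 750.1 and 2605 in T/HS-LDL lungs, 2909 and 1084 in T/SS-LDL lungs, and 1722 in T/SS replicate 1 against 1022 in the averaged T/SS sample. The 3 samples lowest in X56596_at, which were T/HS-LDL replicate 2, the averaged T/SS-LDL sample and T/SS replicate 1, were the 3 highest in U65217_i_at. Over the 8 samples Pearson's r between the 2 probe sets was -0.84 and Spearman's rho -0.60, a description that rests on the low and high sets of samples. U65217_i_at ranked 51st by SD. Its T/HS difference from T/SS was -1.09 ± 0.74 (limma adjusted p = 0.713). It was -1.73 without T/HS replicate 2 and -0.45 without the other T/HS sample.

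Another RT1-Bb probe set, M36151cds_i_at, was high in 1 sample. It had 308 and 197 in T/HS lungs, 244 and 211 in T/HS-LDL lungs, 221 and 192 in T/SS-LDL lungs, and 4819 in T/SS replicate 1 against 268 in the averaged T/SS sample. It ranked as the 7th most variable of 8740 probe sets by SD over the 8 samples. The T/HS difference from T/SS was -2.20 ± 1.15 (limma adjusted p = 0.616) and was -0.12 without T/SS replicate 1. By contrast M36151cds_s_at, from the same source sequence, had 5483 and 4853 in T/HS lungs, 3288 and 4961 in T/HS-LDL lungs, 4903 and 5867 in T/SS-LDL lungs, and 4494 and 6619 in T/SS lungs. It spanned 2.01-fold, and T/HS and T/SS overlapped, with a difference of -0.08 ± 0.25 (limma adjusted p = 0.954) whose sign depended on the sample left out. M15358cds_at was dim, at percentile 20.3 of mean intensity over the probe sets, with 209 and 162 in T/HS lungs, 165 and 152 in T/HS-LDL lungs, 169 and 161 in T/SS-LDL lungs, and 199.8 and 215 in T/SS lungs. Its T/HS and T/SS samples overlapped, with a difference of -0.17 ± 0.14 (limma adjusted p = 0.750).

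In each of the 4 groups, the sample higher in X56596_at of RT1-Bb was the one lower in U65217_i_at, so their order was opposite within every group. The group differences of T/HS from T/SS were opposite in sign as well. Class II beta chain genes are known to be highly polymorphic, and Sprague-Dawley rats are not inbred. Genotype was not measured in these lungs, and its part in the RT1-Bb values was not tested.

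**Figure D2:**
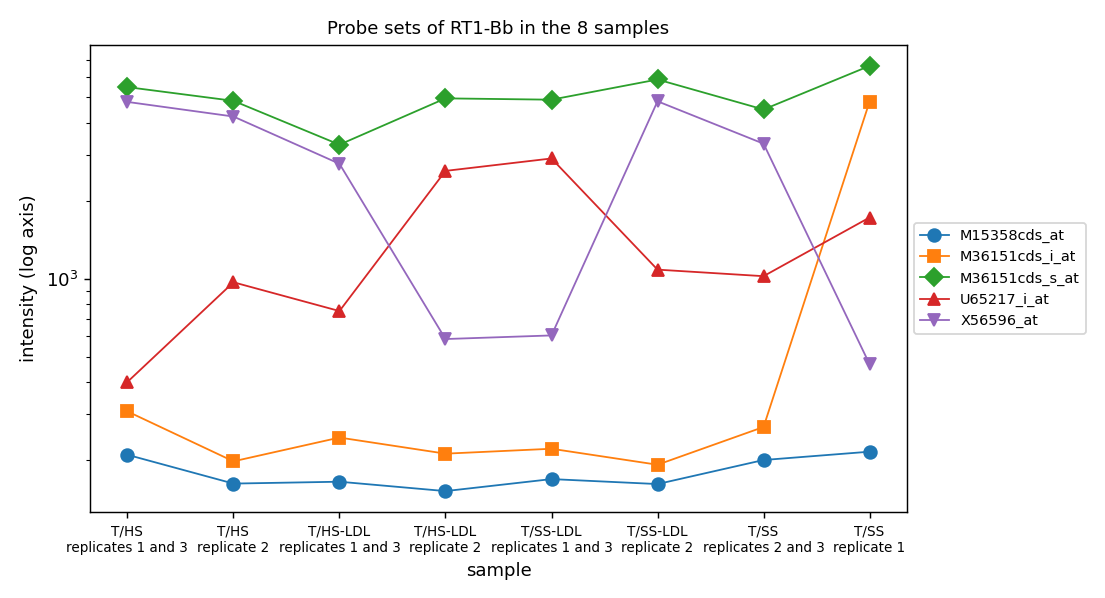
Intensity (log axis) of the 5 RT1-Bb probe sets in each of the 8 samples, ordered T/HS, T/HS-LDL, T/SS-LDL, T/SS. Lines only join the points of a probe set. X56596_at dips to 585, 604 and 468 in T/HS-LDL replicate 2, the averaged T/SS-LDL sample and T/SS replicate 1, where U65217_i_at is at 2605, 2909 and 1722.

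Set side by side, most of the 16 probe sets had lower means in T/HS than in T/SS. In T/HS against T/SS, 12 of 16 members were below 0, against 51.6% of all probe sets, with a median of -0.12 against -0.01 for all. Without T/SS replicate 1 the median was -0.06 and without T/HS replicate 2 it was -0.07, with 10 of 16 below 0 in each case. In 8 of the 16 both T/HS samples were below both T/SS samples, against a background of 20.9%, and in 2 both were above, against 19.2%. The 8 were the 4 Cd74 probe sets, M22366_at and X07551cds_s_at of RT1-Ba, M15562_at of RT1-Da and U65217_i_at of RT1-Bb, and the 2 were X53054_at of RT1-Db1 and X56596_at of RT1-Bb. Several share a source sequence, so these are fewer than 16 independent measures.

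Between the shocked groups, more members were above 0 than below. In T/HS against T/HS-LDL, 11 of 16 members were above 0, against 54.8% of all probe sets, with a median of 0.09 against 0.02. In 6 of the 16 both T/HS samples were above both T/HS-LDL samples, against 18.4%, and in 0 were both below, against 15.7%. K02815_s_at of RT1-Ba was among the 6, with a difference of 0.22 ± 0.20 (limma adjusted p = 0.839), as was X56596_at of RT1-Bb, with 1.82 ± 1.27 (limma adjusted p = 0.805). The split was uneven over samples: 1 of 16 was below 0 without T/HS-LDL replicate 2 (median 0.15) or with quantile normalization (median 0.10). It was 6 without the averaged T/HS sample (median 0.03) and 7 without the averaged T/HS-LDL sample (median 0.05), and with 7 below 0 the share above 0 is near the background. None of the 16 had an unadjusted p under 0.05, against 6.37% of all probe sets.

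With the duct ligated in both groups, 14 of 16 members were below 0 in T/HS-LDL against T/SS-LDL, where 45.9% of all probe sets were, with a median of -0.12 against 0.01. The median was -0.05 without T/SS-LDL replicate 2 and -0.03 without the averaged T/HS-LDL sample, with 10 of 16 below 0 in each case, and -0.19 without the averaged T/SS-LDL sample. Both T/HS-LDL samples were below both T/SS-LDL samples in 3 of 16, against 12.4%, and above in 1, against 16.8%. The 3 held X14254cds_at of Cd74, with a difference of -0.17 ± 0.10 (limma adjusted p = 0.998). The 1 was X13044_at of Cd74, with 0.05 ± 0.09 (limma adjusted p = 0.998), although it was lower in T/HS than in T/SS. Its interaction was -0.19 ± 0.13 with a limma adjusted p of 1.00, so a difference between the duct states was not shown. At an unadjusted p under 0.05 there were 0 of 16, against 3.79% of all probe sets.

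For ligation alone, 10 of 16 members were below 0 in T/SS-LDL against T/SS, against 55.3% of all probe sets, and the median was -0.02, the same as over all probe sets. It ran from -0.17 without T/SS-LDL replicate 2 to 0.01 without the averaged T/SS-LDL sample. Both T/SS-LDL samples were below both T/SS samples in 4 of 16, against 24.5%, and above in 1, against 16.2%. The 4 included X13044_at of Cd74, at -0.16 ± 0.09, M15358cds_at of RT1-Bb, at -0.33 ± 0.14, and M36151cds_i_at of RT1-Bb, at -2.47 ± 1.15, each with a limma adjusted p of 0.896. The last was -0.38 without T/SS replicate 1. The 1 above was X53054_at of RT1-Db1, at 0.51 ± 0.26 (limma adjusted p = 0.896). Each of the 4 pairwise comparisons shares its samples with 2 others, so they are not independent. Over both duct states, 13 of 16 were below 0 after shock, against 47.9%, with a median of -0.10 against 0.01, which was -0.07 without T/SS replicate 1, and 0 had an unadjusted p under 0.05, against 9.04%.

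**Figure D3:**
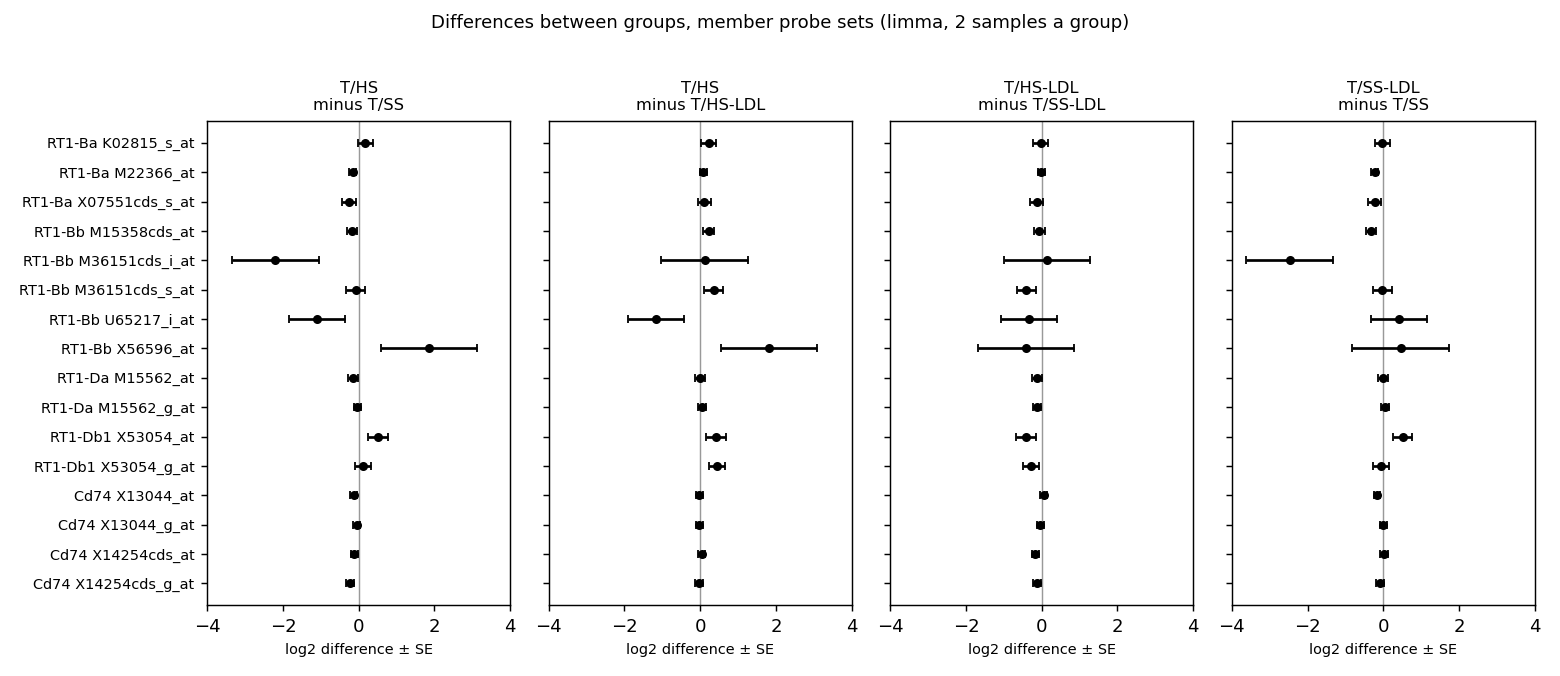
Log2 differences between groups (horizontal axis, points) with standard errors from limma (bars) for the 16 probe sets in the 4 pairwise comparisons. All Cd74 differences between T/HS and T/SS lie between -0.22 and -0.05, while the standard errors of M36151cds_i_at, X56596_at and U65217_i_at of RT1-Bb are 1.15, 1.27 and 0.74.

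The sample with the strongest interferon-induced signal was not the one with the most class II RNA. T/HS replicate 2, singled out because earlier results of these data were known, had 30947 for Cxcl10, an interferon-induced chemokine, against 279 in the averaged T/HS sample. Its Tap1, the transporter that loads MHC class I, was at 17936 against 1614, and 1539 to 2490 in the 7 other samples. The interferon-responsive transcription factor Irf1 reached 24782 there, while the averaged T/HS sample had 6762 and the 6 samples of other groups 2841 to 7136. The interferon gamma signalling list that holds Irf1 was mixed: 6 of its 10 measured genes were higher in T/HS replicate 2 than in the other T/HS sample and 4 were lower, with ratios of 0.641 to 25.1, a median of 1.24 and 4 genes highest of the 8 samples. All 10 class I presentation genes and all 6 antiviral genes measured were highest of the 8 samples in T/HS replicate 2. Of the 16 class II and invariant chain probe sets, 0 were highest there. Against the averaged T/HS sample, 15 of the 16 were lower in T/HS replicate 2, with ratios of 0.642 to 2.42 and a median of 0.929. The exception was U65217_i_at of RT1-Bb. T/HS replicate 2 also leaned lower over all probe sets. Their median log2 difference of T/HS from T/SS was 0.033 without T/HS replicate 2 and -0.045 without the averaged T/HS sample. The share of all probe sets lower in T/HS replicate 2 is not given here, so the lower member values are not shown to be particular to class II. Class I genes had a median ratio of 1.69 and a range of 1.05 to 11.1. This sets 1 sample against 1, with no replicate check.

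**Figure D4:**
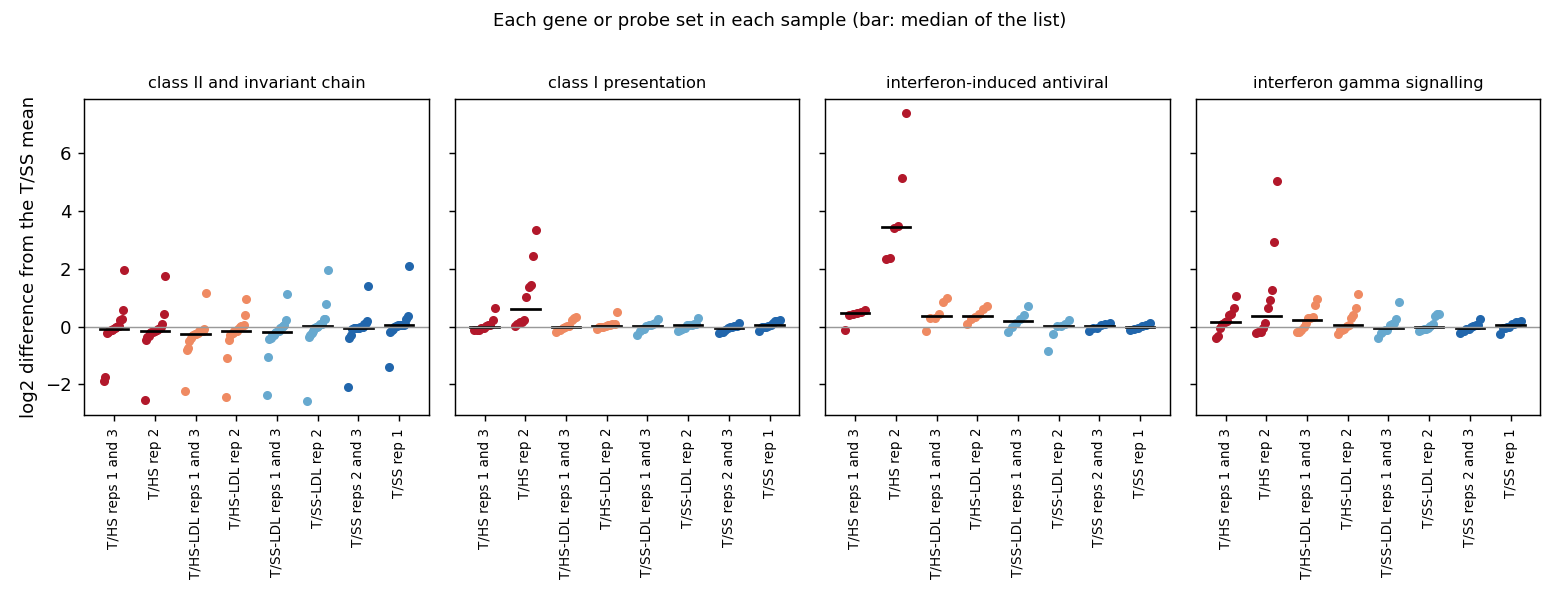
Log2 difference of each sample from the mean of the T/SS samples for class II and invariant chain probe sets, class I presentation genes, interferon-induced antiviral genes and interferon gamma signalling genes, 1 point each, with the median of the list as a bar. In T/HS replicate 2 the 10 class I and 6 antiviral genes are the highest of the 8 samples, and 0 of the 16 class II and invariant chain probe sets are.

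Other genes of the class II pathway were described from lists, each probe set with 1 gene symbol, and none passed the threshold in any comparison. As the background for the list counts that follow, 51.6% of all probe sets were below 0 in T/HS against T/SS, with a median of -0.01. Of 8 listed genes for other class II chains and peptide exchange, 4 were measured, and 1 was above and 3 below 0 in T/HS against T/SS, with a median of -0.03. RT1-DMa, a chain of the DM exchange factor, had 5261 and 4601 in T/HS lungs, 4040.2 and 4884 in T/HS-LDL lungs, 3889.7 and 4726 in T/SS-LDL lungs, and 4114 and 5105 in T/SS lungs. RT1-DOa, a chain of the DM inhibitor DO, lay between 5437 and 6152 in all 8 samples. The averaged T/HS-LDL sample, lowest in RT1-Da, was also lowest in RT1-DMb, at 5084 against 6283 to 8129 in the others.

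Of the 11 listed class II transcription genes, 6 were measured, of which 4 were above and 2 below 0 in T/HS against T/SS, with a median of 0.12. Ciita itself was not among them. Irf8, a transcription factor of monocytes and dendritic cells, had 1062 and 1764 in T/HS lungs, 634 and 896 in T/HS-LDL lungs, 637 and 444 in T/SS-LDL lungs, and 653 and 764 in T/SS lungs. Both T/HS samples were the highest of the 8, and the difference from T/SS was 0.95 ± 0.30 (limma adjusted p = 0.471). Rfx5, a subunit of the X box factor RFX, was at 1415 in T/HS replicate 2 and between 682 and 1090.0 in the other samples. Nfyc, a subunit of the Y box factor, lay between 5468 and 6545.

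Among 13 listed genes of endosomal processing, 10 were measured, with 5 above and 5 below 0 in T/HS against T/SS and a median of 0.00. Ctss, cathepsin S, which cuts the invariant chain in antigen-presenting cells, was named after its values were seen: it had 10221 and 11807 in T/HS lungs, 11935 and 9647 in T/HS-LDL lungs, 9883 and 8914 in T/SS-LDL lungs, and 6819 and 7941 in T/SS lungs. The 2 T/SS samples were the lowest of the 8, and the difference of T/HS from T/SS was 0.58 ± 0.15 (limma adjusted p = 0.417). The T/SS samples, lowest in Ctss, were the highest in Cd74 X13044_at, but not in the other Cd74 probe sets. In each of those, a T/SS-LDL sample lay above a T/SS sample. Mif, a cytokine that binds Cd74 at the cell surface, had 8313 and 6399 in T/HS lungs against 7531 and 7369 in T/SS lungs. Of the 5 genes for ligands and co-receptors of the invariant chain, all measured, 3 were above and 2 below 0, with a median of 0.09. Of 8 measured surface turnover and accessory genes, 3 were above and 5 below 0, with a median of -0.05.

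Of 7 measured genes by which T cells see class II, 5 were above and 2 below 0 in T/HS against T/SS, with a median of 0.12. Cd4, the co-receptor for class II, had 1038 and 812 in T/HS lungs against 920.1 and 1020.3 in T/SS lungs, which overlapped. Of 10 measured genes of interferon gamma signalling, the main inducer of class II, 7 were above and 3 below 0, with a median of 0.16. Irf1 had the highest mean among them and differed by 1.98 ± 0.53 (limma adjusted p = 0.417). Ifng itself, named after its values were seen, was low, at 352 and 335 in T/HS lungs, 270.4 and 287 in T/HS-LDL lungs, 283 and 283 in T/SS-LDL lungs, and 323 and 297 in T/SS lungs. Of 4 measured genes for suppressors of class II, 3 were above and 1 below 0, with a median of 0.18. Nr3c1, the glucocorticoid receptor, had 1397 and 1346 in T/HS lungs, 1149 and 1113 in T/HS-LDL lungs, 1055 and 1150.0 in T/SS-LDL lungs, and 1120.2 and 1147 in T/SS lungs. Its T/HS samples were the highest of the 8, and the difference from T/SS was 0.27 ± 0.09 (limma adjusted p = 0.492).

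Markers of cells that carry class II were set beside these values. Of 21 listed monocyte and macrophage markers, 13 were measured, with 11 above and 2 below 0 in T/HS against T/SS and a median of 0.15, and their summed intensity was 58977 and 65878 in T/HS lungs, 55791 and 64127 in T/HS-LDL lungs, 56811 and 55419 in T/SS-LDL lungs, and 55662 and 56958 in T/SS lungs. The sum was above that of both T/SS samples in both T/HS samples, while all 4 Cd74 probe sets were below, and the part of these cells in the Cd74 values was not tested. Of 10 dendritic cell markers 4 were measured, with 2 above and 2 below 0, and their sum lay between 732 and 883. Of 14 B cell markers only 2 were measured, Cd37 and Cd79b, summing to 3332 and 2039.9 in T/HS lungs and 2183 to 2759 elsewhere. The averaged T/HS sample also held 4655 for Cd2, a T and NK cell marker, against 102 to 149.8 in the 7 other samples. Alveolar type II markers, 5 of 11 measured, were 3 above and 2 below 0 with a median of 0.01.

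Neutrophil markers had the largest median of the 7 cell marker lists: all 8 measured of 15 were above 0 in T/HS against T/SS, with a median of 1.06. In all 8 both T/HS samples were above both T/SS samples, against 19.2% of all probe sets. They summed to 36595 and 71695 in T/HS lungs, 62398 and 71757 in T/HS-LDL lungs, 44131 and 33431 in T/SS-LDL lungs, and 26837 and 21298 in T/SS lungs. The T/SS samples, lowest in this sum, were the highest in Cd74 X13044_at alone. Each other Cd74 probe set had a T/SS-LDL sample above a T/SS sample. The part of neutrophils in the Cd74 values was not tested. Of 9 endothelial markers 4 were measured, with 1 above and 3 below 0 and a median of -0.19. T and NK cell markers, 13 of 16 measured, had 9 above and 4 below 0 with a median of 0.12.

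The mean of the 16 members, each centred on its own mean, was 0.04 in the averaged T/HS sample and -0.02 in T/HS replicate 2, -0.21 and -0.10 in T/HS-LDL lungs, -0.12 and 0.13 in T/SS-LDL lungs, and 0.06 and 0.22 in T/SS lungs. The averaged T/HS-LDL sample was the lowest and T/SS replicate 1 the highest, a place it owed to the peak of M36151cds_i_at there. The members were centred but not scaled, so M36151cds_i_at, X56596_at and U65217_i_at of RT1-Bb weighed most. Their SDs were 1.57, 1.49 and 0.95 on the log2 scale, against a median of 0.20 over the members. The genes named next follow a mean led by these probe sets. Over the 8 samples, the genes whose probe sets followed this mean most closely were Trmt6 (r = 0.94), Ghrh (r = 0.93), Cops7a (r = 0.93), Sod3 (r = 0.93) and Cdkn2b (r = 0.92), followed by Lgals1, Egfl7, Cmklr1, Grik5 and Bcl2l11 with r of 0.90 to 0.91. These are the highest correlations over 8 points among the 7006 probe sets with 1 gene symbol, given with no test. Members and probe sets within 2% of an array's highest value were left out of that ranking.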

How the data were processed

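The data were 12 RG-U34A arrays of rat lung, 3 per group, labelled as biological replicates. Per the submitters' processing notes, the authors made the deposited intensities with RMA, its version not given in the sources used here; the values are linear, and RMA's background correction and between-array normalization compress folds of dim probe sets and remove shifts shared by all probe sets. Array number limits the precision. Gene symbols came from the platform annotation: of 8740 probe sets, 7006 had 1 symbol, 308 several and 1426 none, and only the first were named. Near-identical arrays of a group (robust SD of log2 differences under 0.1) were averaged, leaving 8 samples, 2 per group. One model for all 4 groups was fitted to log2 intensities (limma 3.58.1, functions lmFit and eBayes, in R 4.3.3), with Benjamini-Hochberg adjustment over 8740 probe sets and a threshold of 0.05. The fit had 4 residual degrees of freedom. The test was tried on simulated data with independent noise and 200 changed probe sets. That simulation held no single outlying samples such as those of RT1-Bb, so it does not speak for them. Members and lists were chosen with earlier results of these data known. Named list genes were among the 4 with the highest mean in each list unless stated. Cxcl10 and Tap1, named for T/HS replicate 2, were outside this rule. Of 18 correlations of same-numbered deviations from group means, 3 were over 0.1 (range -0.166 to 0.189). Because 2 arrays of each group nearly coincide, these correlations largely repeat each other. They cannot show whether replicate numbers pair the arrays, and no pairing was modelled in the main fit. Alternatives were separate arrays, a replicate block, a random block, quantile normalization, an offset of 50, a filter on dim probe sets, a trended robust prior and each sample left out. Promoter sequences came from RefSeq GRCr8.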

Additional observations from a re-analysis of the deposited data

How the results depend on the processing

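Depth on arrays shows as signal over background: M15358cds_at of RT1-Bb was dim, and all p-values rest on 2 samples per group after averaging. Over all probe sets, 0 passed in each comparison; with 12 separate arrays 629 passed in T/HS against T/SS, 372 in T/HS against T/HS-LDL, 127 in T/HS-LDL against T/SS-LDL, 141 in T/SS-LDL against T/SS, 1 for the interaction and 733 for shock over both duct states, since near-identical arrays then count as replicates. With the replicate block on the 12 arrays these counts were 456, 130, 47, 21, 1 and 570, and with a random block 25 in T/HS against T/SS and 58 for shock over both duct states. With 1 sample left out they ranged from 0 to 139, 0 to 66, 0 to 2, 0 to 2, 0 to 27 and 0 to 108 in the same order, and the highs of 139, 66, 27 and 108 came without the averaged T/HS sample. The 33 member differences followed were all those of T/HS against T/SS and a selection from the other comparisons. Leaving out a sample of a group not compared cannot change a pairwise difference. Where 2 groups do not overlap, leaving out 1 sample cannot reverse its sign. Many signs were thus fixed in advance, and the counts are no measure of robustness. Of these 33 differences, 258 of 264 values with 1 sample left out kept their sign and their side of the threshold. Under the other settings 224 of 227 did. The exceptions with a changed sign were, in T/HS against T/SS, M36151cds_s_at of RT1-Bb, at 0.042 with 12 arrays, with or without the replicate block, and M15562_g_at of RT1-Da, at 0.00065 with quantile normalization. With 1 sample left out, M15358cds_at of RT1-Bb ranged from -0.36 to 0.014, M36151cds_s_at from -0.36 to 0.20, M15562_g_at of RT1-Da from -0.075 to 0.013 and X53054_g_at of RT1-Db1 from -0.021 to 0.24; the cause was not tested. M36151cds_i_at of RT1-Bb in T/SS-LDL against T/SS passed once, without the averaged T/SS sample (-4.55, limma adjusted p = 0.0497), where T/SS replicate 1 stood alone and was assumed to vary like the other groups. No setting shifted the median of all probe sets by more than 0.0575.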
